A study of Homo sapiens with 8 samples.

Results

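The genes described here were 10 members of the ATF4 branch of the integrated stress response, namely ATF4, ATF5, DDIT3, DDIT4, TRIB3, CHAC1, ASNS, SESN2, PPP1R15A and EIF2AK4. They were taken from the table of normalized counts by gene symbol, from a list of names and not by a cutoff on a measured value, and all 10 of the 47591 rows were found and tested among 18947 expressed genes. The counts came from stranded RNA-seq of polyadenylated RNA. All samples were SH-SY5Y, a cell line from a human neuroblastoma, grown in high-glucose medium with serum. G2 cells carried CRISPR/Cas9 with a guide against PRPF40B, a splicing factor that binds the early spliceosome, and were measured in 3 libraries. SCR (scramble) cells carried CRISPR/Cas9 with a control guide and were measured in 3 libraries, and WT cells, which were not edited, in 2. G2 was a colony line set up by limiting dilution after puromycin selection, and how SCR cells were cloned is not given in the sources used here. SCR and G2 were kept in puromycin, which is not listed for WT. The edit, the colony and the drug cannot be told apart in G2 against WT, nor the edit and the colony in G2 against SCR. The labels name no stress treatment. The labels call the libraries of a line biological replicates, without saying how the cultures were separated, so the p-values measure only the spread between these libraries.

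The integrated stress response starts with kinases that phosphorylate the initiation factor eIF2α, each sensing a different stress. EIF2AK4 (GCN2) senses amino acid shortage through uncharged tRNA, and EIF2AK3 (PERK) senses unfolded protein in the endoplasmic reticulum. Phosphorylated eIF2α slows translation in general but raises that of a few mRNAs with upstream open reading frames, among them ATF4, ATF5, DDIT3 and PPP1R15A, and ATF4 protein then switches on genes for amino acid supply, redox balance and, with DDIT3 (CHOP), cell death. PPP1R15A (GADD34) closes the loop by bringing a phosphatase to eIF2α. RNA-seq reads the mRNA of these genes and neither the phosphorylation of eIF2α nor the amount of ATF4 protein.

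ATF4 acts as a dimer with C/EBP factors on a composite element, called CARE here and searched as TGATGNAA, while the CRE, TGACGTCA, is bound by CREB and ATF factors. Both strands of the 250 bases upstream of each RefSeq transcription start (GRCh38.p14) were searched. CARE was in 3.14% of 35116 promoters, which gave at least 1 match for 3.89% of 27305 gene symbols and for 2 of the 10 genes. CRE was in 1.65% of the promoters, with a match for 2.03% of the symbols and for 1 of the 10. Among the 75 of 95 other pathway genes with a promoter sequence at hand, 11 had CARE and 0 had CRE. The windows shown are those of the 3 members with a match, and of ATF3 and JDP2, bZIP factors that are described further on. Capitals mark the motif, and each window is written on the strand of its gene.
ASNS, CARE, chr7:97872458-97872487, minus strand: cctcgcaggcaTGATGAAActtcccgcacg
CHAC1, CARE in reverse, chr15:40953251-40953280, plus strand: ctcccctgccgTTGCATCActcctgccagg
PPP1R15A, CRE, chr19:48872352-48872381, plus strand: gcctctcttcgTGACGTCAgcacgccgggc
ATF3, CARE, chr1:212565205-212565234, plus strand: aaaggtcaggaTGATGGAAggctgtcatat
JDP2, CARE, chr14:75427995-75428024, plus strand: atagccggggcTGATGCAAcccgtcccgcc
The motif began 68 bases upstream of the start in ASNS, 209 in CHAC1, 58 in PPP1R15A, 191 in ATF3 and 16 in JDP2. The windows of ASNS, CHAC1 and PPP1R15A lie wholly in exons of longer GENCODE 44 transcripts of the same genes, whereas the ATF3 window lies outside its gene. These matches describe the letters in a window and say nothing of binding in these cells, and a gene with no match may have such an element elsewhere.

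A normalized count is the number of reads on a gene divided by a size factor for its library, so it compares libraries for a given gene and is not scaled to gene length. The counts behind the values, recovered from the table, summed to between 59804395 and 81080747 per library, and since 71.3% to 75.6% of the counts up to 30 were multiples of 3, the number of independent fragments may be nearer 19934798 to 27026916. The ribosomal RNA genes took 4.96% and 4.75% of the WT libraries and 0.384% to 0.587% of the other 6. PRPF40B, the target of the guide, stood at 840, 841 and 918 in the G2 libraries, 1686, 1672 and 1669 in SCR, and 1972 and 1668 in WT. It fell in G2 against SCR by 0.95 on the log2 scale (SE 0.08, adjusted p = 7.4e-07), so the labels of the G2 and SCR libraries match their PRPF40B mRNA.

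The mRNAs of this branch were not shifted together in G2. Against SCR, 1 of the 10 genes was called, DDIT3, which was higher. Against WT, 5 were called, with DDIT3 higher and ATF4, ATF5, CHAC1 and ASNS lower. In SCR against WT, 4 were called, with SESN2 higher and ATF4, CHAC1 and ASNS lower. In limma, a gene was called where its fold reached 1.5 with an unadjusted p up to 0.05, the thresholds of the study, and the Benjamini-Hochberg adjusted p over all genes tested is given beside each value.

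These counts stand beside a high background. In G2/SCR 26.9% of all genes tested were called (15.1% higher and 11.8% lower), in G2/WT 29.9% (17.7% higher and 12.2% lower), and in SCR/WT 16.3% (10.7% higher and 5.63% lower). The 1 call in G2/SCR is therefore below the share of all genes, while 4 lower calls in G2/WT and 3 in SCR/WT are above the shares of all genes called lower. Both of those comparisons use the same 2 WT libraries. The median log2 difference over the 10 genes was −0.09 in G2/SCR, −0.29 in G2/WT and −0.31 in SCR/WT, against −0.01, 0.00 and 0.01 over all genes. At an adjusted p of at most 0.05 with no demand on the fold, 6, 6 and 8 of the 10 passed, where 49.1%, 52.6% and 35.4% of all genes did. The libraries of the 2 lines did not overlap for 7, 7 and 8 of the 10 genes, where this held for 61.8%, 65.4% and 55.3% of all genes.

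**Figure D1:**
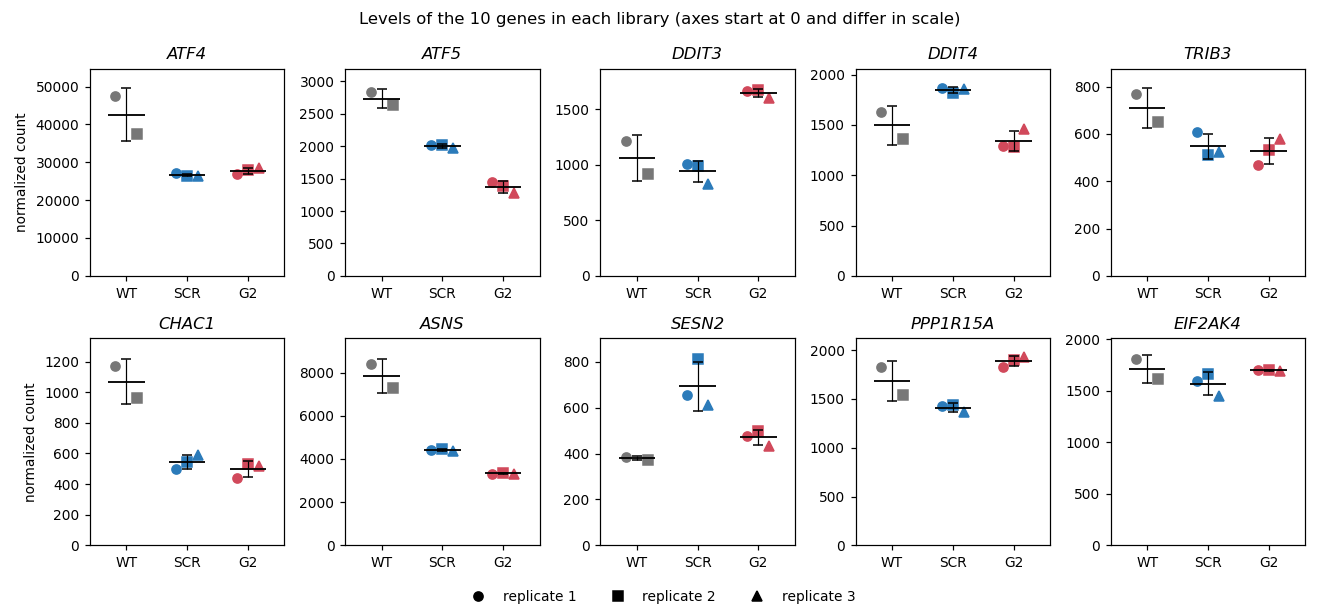
Normalized count (y axis, from 0, with its own scale in each panel) of the 10 genes in each library of the WT, SCR and G2 lines (x axis). Points are libraries, with the shape giving the replicate, horizontal bars are means and error bars are SDs (n = 2 for WT and 3 for SCR and G2). DDIT3 is highest in all 3 G2 libraries, SESN2 in all 3 SCR libraries, and ATF4, ATF5, CHAC1 and ASNS in both WT libraries.

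Neither the sensor nor the phosphatase subunit was called in any comparison. EIF2AK4 (chr15:39934115-40035596, plus strand, hg38) was at 1702, 1703 and 1697 in G2, 1599, 1662 and 1448 in SCR, and 1805 and 1618 in WT. The G2 libraries lay above all SCR libraries and within the WT range. Its difference was 0.12 in G2/SCR (95% confidence interval −0.04 to 0.28, adjusted p = 0.20), −0.01 in G2/WT (−0.18 to 0.17) and −0.13 in SCR/WT (−0.30 to 0.05), and its span of line means, 0.13 on the log2 scale, was the narrowest of the 10 genes.

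PPP1R15A (chr19:48872421-48876061, plus strand) was at 1830, 1901 and 1930 in G2, 1430, 1442 and 1363 in SCR, and 1830 and 1537 in WT. All G2 libraries and both WT libraries lay above all SCR libraries. The G2/SCR difference of 0.42 (SE 0.07, adjusted p = 0.00055) was larger than the spread between libraries but below the fold of 1.5. That of −0.25 in SCR/WT (SE 0.08, adjusted p = 0.036) was also below this fold. It was about the size of the gap between the WT libraries, where replicate 1 was 1.19 times replicate 2. In G2/WT the difference was 0.17 (SE 0.08, adjusted p = 0.11), and the libraries of the lines overlapped.

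Among the transcription factors, ATF4 (chr22:39520559-39522685, plus strand) was the most abundant of the 10 genes per length, at a mean of 29961 normalized counts per kb of its canonical transcript in WT, against 3284 for ASNS, the next, and 109.9 for SESN2, the lowest. Its normalized counts were 26841, 28014 and 28422 in G2, 27037, 26485 and 26487 in SCR, and 47473 and 37556 in WT. The libraries of G2 and SCR overlapped, and both WT libraries lay above all of them, but the WT libraries also differed from each other more than those of any edited line did. The G2/SCR difference was 0.06 (95% confidence interval −0.10 to 0.22, adjusted p = 0.54).

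ATF4 fell in both edited lines against WT, by 0.61 in G2 (SE 0.08, adjusted p = 6e-05) and by 0.66 in SCR (SE 0.08, adjusted p = 8.9e-05) on the log2 scale. Both calls lay just past the fold threshold. Without WT replicate 1 the differences were −0.44 and −0.49 and neither was called, and without G2 replicate 1 that of G2/WT was −0.58 and not called. Processed pseudogenes of ATF4 resemble its mRNA, and those named ATF4P1 to ATF4P4 in GENCODE 44 are not rows of the table under these names.

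ATF5 (chr19:49928763-49933938, plus strand), a close relative of ATF4 with a role in the mitochondrial stress response, was at 1451, 1387 and 1272 in G2, 2021, 2017 and 1967 in SCR, and 2838 and 2630 in WT. The 3 lines did not overlap, in the order WT, SCR, G2. It fell in G2/WT by 1.00 (SE 0.08, adjusted p = 4.7e-07), a mean of 1370 ± 90.5 (SD, n = 3) against 2734 ± 147 (SD, n = 2). The G2/SCR difference of −0.55 (SE 0.07, adjusted p = 3.1e-05) and the SCR/WT difference of −0.45 (SE 0.08, adjusted p = 0.00078) were larger than the spread but below the fold of 1.5. Of its exon bases 19.5% are shared with NUP62 on the opposite strand.

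DDIT3 (chr12:57516589-57520519, minus strand), which encodes the C/EBP-family factor CHOP, was the member called in both G2 comparisons under the deposited scaling. It was at 1668, 1671 and 1603 in G2, 1004, 987 and 831 in SCR, and 1211 and 916 in WT. All G2 libraries lay above all others, and SCR and WT overlapped. It rose in G2/SCR by 0.81 (SE 0.11, adjusted p = 4.8e-05), 1.75 times between the means, and in G2/WT by 0.64 (SE 0.12, adjusted p = 0.00064), while SCR/WT gave −0.17 (SE 0.12, adjusted p = 0.30). The G2/WT call was lost without WT replicate 2, at 0.44.

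DDIT3 shares 355 of its 1307 exon bases (27.2%) with MARS1, the methionyl-tRNA synthetase gene on the opposite strand, whose libraries ran from 14370 to 15372 in G2, from 16482 to 16708 in SCR and from 19823 to 21860 in WT. The log2 difference of MARS1 was −0.16 between G2 and SCR (adjusted p = 0.025) and −0.48 between G2 and WT (adjusted p = 2.5e-05), so the 2 genes differed in opposite directions. The library kit keeps the strand, but the strand setting of the counting is not given in the sources used here, and the share of reads placed on the wrong gene was not tested.

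Of the targets, ASNS showed the widest span of line means, 1.23 on the log2 scale. It makes asparagine from aspartate and glutamine. ASNS was at 3324, 3373 and 3303 in G2, 4434, 4468 and 4356 in SCR, and 8390 and 7276 in WT. The 3 lines did not overlap, in the order WT, SCR, G2. It fell by 1.23 in G2/WT (SE 0.07, adjusted p = 2.5e-08), from 7833 ± 788 (SD, n = 2) to 3333 ± 35.5 (SD, n = 3), and by 0.82 in SCR/WT (SE 0.07, adjusted p = 4.2e-06).

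The G2/SCR difference of ASNS was −0.41 (SE 0.06, adjusted p = 0.00013), larger than the spread but below the fold of 1.5. Its row in the table (chr7:97851677-97972350, minus strand) reaches beyond the GENCODE 44 gene. Of its 4896 exon bases, 2415 are shared with another annotated gene on the same strand, so reads from that gene could not be separated. The pseudogene ASNSP1 has a row of its own, while ASNSP3, ASNSP4 and ASNSP6 have none under these names.

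CHAC1 (chr15:40953471-40956512, plus strand), a glutathione-degrading enzyme, was at 441, 534 and 521 in G2, 500.1, 545 and 588 in SCR, and 1172 and 965 in WT. The edited lines overlapped, and both WT libraries were well above them. It fell by 1.10 in G2/WT (SE 0.12, adjusted p = 1.2e-05) and by 0.97 in SCR/WT (SE 0.12, adjusted p = 0.0001). In G2/SCR the difference was −0.13 (95% confidence interval −0.37 to 0.11, adjusted p = 0.36).

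TRIB3 (chr20:380629-397561, plus strand), a pseudokinase that binds AKT and dampens ATF4 activity, was at 470, 533 and 577 in G2, 609, 511 and 521 in SCR, and 770 and 648 in WT. The edited lines overlapped, and both WT libraries lay above them. Its differences of −0.43 in G2/WT (SE 0.12, adjusted p = 0.012) and −0.37 in SCR/WT (SE 0.12, adjusted p = 0.035) were larger than the spread but below the fold of 1.5, and G2/SCR gave −0.06 (SE 0.11, adjusted p = 0.70).

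The 2 members that restrain mTORC1 were highest in SCR. SESN2 (chr1:28259518-28282491, plus strand), a leucine sensor of the sestrin family that p53 also induces, was at 477, 500.4 and 435 in G2, 657, 815 and 609.9 in SCR, and 387 and 373 in WT. The 3 lines did not overlap, in the order SCR, G2, WT. SESN2 rose in SCR/WT by 0.85 (SE 0.13, adjusted p = 0.00033). No other member was called higher there under the deposited scaling. SESN2 was −0.55 in G2/SCR (SE 0.11, adjusted p = 0.0016), below the fold of 1.5, and 0.31 in G2/WT (SE 0.13, adjusted p = 0.061).

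DDIT4 (chr10:72273920-72276036, plus strand), also known as REDD1 and induced by low oxygen too, was at 1289, 1277 and 1456 in G2, 1870, 1815 and 1856 in SCR, and 1629 and 1360 in WT. All SCR libraries lay above all others, and G2 and WT overlapped. Its G2/SCR difference of −0.46 (SE 0.08, adjusted p = 0.00051) and its SCR/WT difference of 0.31 (SE 0.09, adjusted p = 0.020) were larger than the spread but below the fold of 1.5, and G2/WT gave −0.15 (SE 0.09, adjusted p = 0.18). With all libraries scaled to the same total, DDIT4 was at 0.59 in SCR/WT and was called higher.

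**Figure D2:**
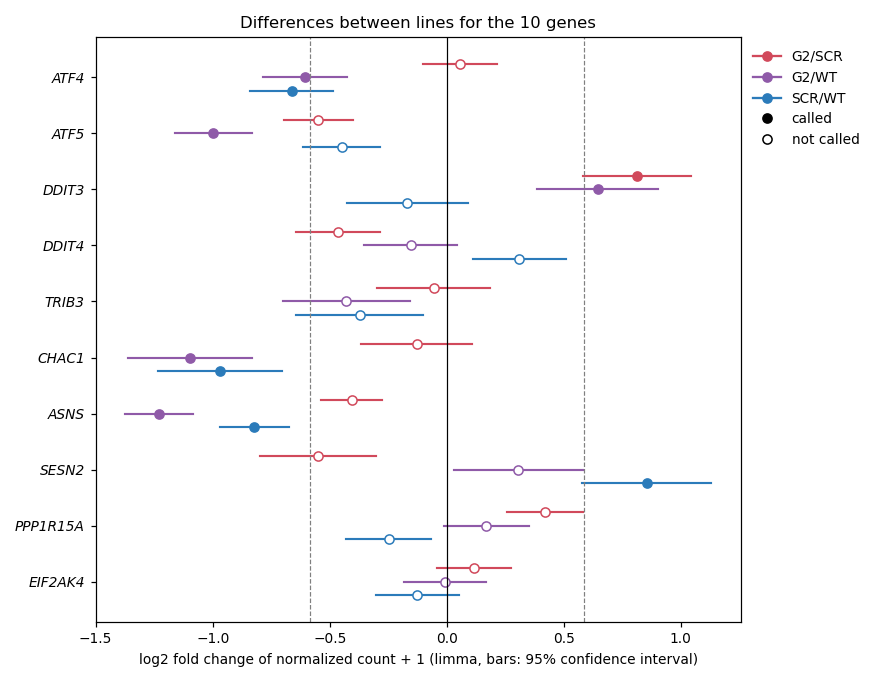
Log2 fold change (x axis) of the 10 genes (y axis) in G2/SCR, G2/WT and SCR/WT from limma on log2(normalized count + 1), with bars for the 95% confidence interval, filled points for called genes and dashed lines at a fold of 1.5. In G2/SCR DDIT3, at 0.81, is the filled point, and the filled points of CHAC1 and ASNS in both comparisons with WT run from −1.23 to −0.82.

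The sizes of the differences from WT depended on how the libraries were scaled. With all libraries scaled to the same total, the median over all genes moved to −0.10 in G2/SCR, 0.19 in G2/WT and 0.29 in SCR/WT, and with upper-quartile scaling to −0.10, −0.10 and −0.01. The share of all calls that were higher moved from 59.3% to 75.8% in G2/WT and from 65.6% to 90.7% in SCR/WT with the same total, and to 48.5% in G2/WT with the upper quartile. With the same total, ATF4 was at −0.42 in G2/WT and −0.39 in SCR/WT and ASNS at −0.55 in SCR/WT, and none of these was called, while the other falls against WT (ATF5, CHAC1 and ASNS in G2/WT, and CHAC1 in SCR/WT) remained called. Relative to the moved medians the falls of ATF4 were of about the former size.

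In G2/SCR both scalings gave −0.64 for ATF5 and −0.64 for SESN2, past the fold of 1.5, so that 3 of the 10 genes were called and ATF5 was called in both G2 comparisons. DDIT3 remained called in G2/SCR under each scaling, but in G2/WT it was at 0.54 with the upper quartile and not called. Leaving the ribosomal RNA genes out of the total, an alternative chosen after seeing the data, gave −0.48 and −0.45 for ATF4 against WT, neither of them called.

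**Figure D3:**
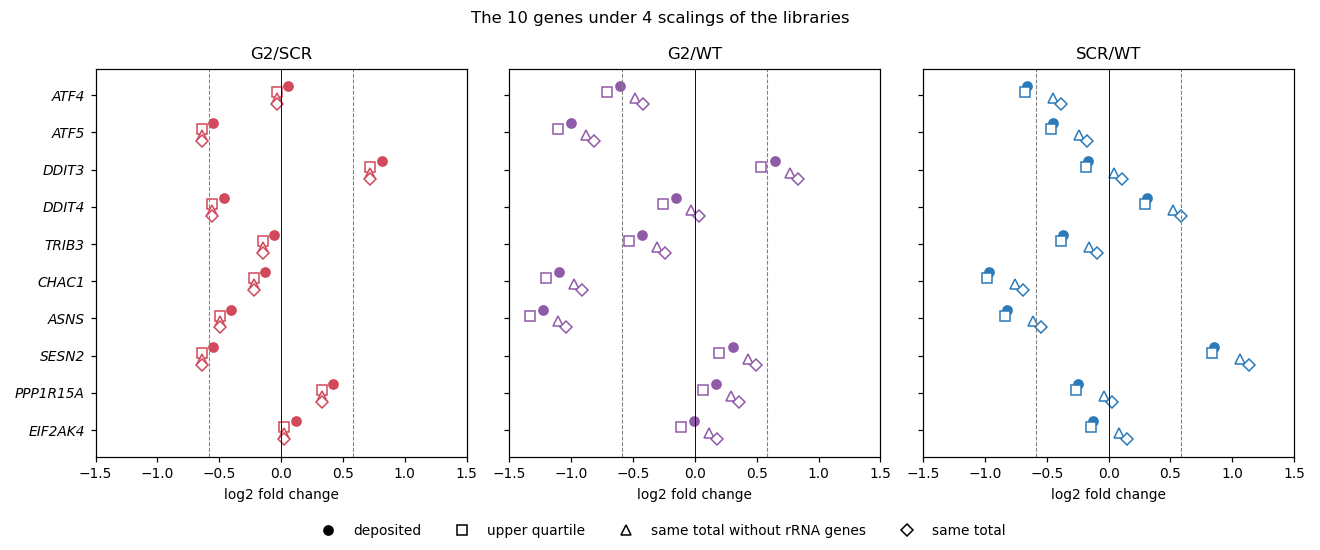
Log2 fold change (x axis) of the 10 genes (y axis) in the 3 comparisons under the deposited scaling (filled circles) and 3 others (open symbols), with dashed lines at a fold of 1.5. In SCR/WT the same total moves every gene to the right, ATF4 from −0.66 to −0.39 and ASNS from −0.82 to −0.55.

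WT had the highest mean for 6 of the 10 genes, where it did for 33.4% of all genes, and G2 and SCR for 2 each (37.2% and 29.4% of all genes). The order WT, SCR, G2 held for ATF5, TRIB3, CHAC1 and ASNS and for 21.7% of all genes. In that order the libraries of SCR and G2 overlapped for TRIB3 and CHAC1. DDIT3 and PPP1R15A had the order G2, WT, SCR, in which WT overlapped with SCR for DDIT3 and with G2 for PPP1R15A. WT replicate 1 exceeded WT replicate 2 for 10 of 10 members, with a median log2 ratio of 0.25, against 53.5% of all genes and a median of 0.03.

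By the root mean square distance between centred log2 values over the 8 libraries, the member nearest to ATF4 was TRIB3, at 0.14, and the nearest to ATF5 was ASNS, at 0.15. ASNS was also the nearest to CHAC1, at 0.16. PPP1R15A and EIF2AK4 were nearest to each other, at 0.14, and DDIT3, DDIT4 and SESN2 had no member nearer than 0.22. Among 12587 other genes the nearest to ASNS were IGFBPL1, LIPT2, VSTM2L, UNC13D and LMO1, at 0.08 to 0.09.

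The rest of the pathway was described with lists by role, each given by its calls. Like the members, these lists were chosen with earlier results of these data known. Among 9 genes for eIF2α kinases and their phosphatase and regulatory subunits, which include EIF2AK4 and PPP1R15A, 1 rose in each G2 comparison and none fell. This gene was EIF2AK3, the kinase of the endoplasmic reticulum. It ran from 5477 to 5848 in G2, from 1409 to 1485 in SCR and from 1531 to 1598 in WT, and rose by 1.96 in G2/SCR (SE 0.06, adjusted p = 1.4e-10) and by 1.85 in G2/WT (SE 0.07, adjusted p = 5.7e-10), against −0.10 in SCR/WT. Of 8 subunits of eIF2 and eIF2B, limma called 0 in any comparison, and DESeq2 and edgeR called 0 in G2/SCR. At an unadjusted p of at most 0.05 with no demand on the fold, 4, 7 and 5 of them were lower in G2/SCR, G2/WT and SCR/WT, and 2 were called lower in G2/WT with the upper quartile. Without WT replicate 2, 1 was called in each comparison with WT, as was 1 in G2/WT without G2 replicate 3. The share of all genes at an unadjusted p of at most 0.05 alone is not given here. At an adjusted p of at most 0.05, 49.1%, 52.6% and 35.4% of all genes passed in either direction.

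Of 11 bZIP partners and other stress factors, 7 rose and none fell in G2/SCR, and 5 rose and none fell in G2/WT. The median over this list was 0.80 and 0.79. The G2/SCR count was 5 with the same total and with the upper quartile, and the G2/WT count was 7 with the same total. NFE2L2, the regulator of the antioxidant response, rose by 0.80 in G2/SCR (SE 0.07, adjusted p = 1.3e-06) and by 0.79 in G2/WT (SE 0.08, adjusted p = 4e-06). CEBPB, a dimer partner of ATF4 and DDIT3, rose by 1.06 (SE 0.24, adjusted p = 0.0035) and by 1.12 (SE 0.27, adjusted p = 0.0045). CEBPD and BATF3 also rose in both, but both were low. CEBPD ran from 81 to 216 in G2 and from 6.95 to 39.8 elsewhere, and BATF3 from 95.3 to 113 in G2 and from 13.6 to 49.6 elsewhere.

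ATF3, a stress-induced repressor, followed another order. It was at 1167, 904 and 1120 in G2, 606, 553 and 607 in SCR, and 1356 and 1242 in WT. SCR lay below all other libraries, and ATF3 fell in SCR/WT by 1.14 (SE 0.11, adjusted p = 1.7e-05) and rose in G2/SCR by 0.85 (SE 0.10, adjusted p = 2.1e-05). JDP2, a repressor related to ATF3, rose in both edited lines against WT, by 1.13 in SCR/WT (SE 0.13, adjusted p = 5.1e-05) and by 1.29 in G2/WT (SE 0.13, adjusted p = 4.9e-06), and its mean was 335 ± 62.1 (SD, n = 2) for WT, 728 ± 73 (SD, n = 3) for SCR and 814 ± 61.9 (SD, n = 3) for G2.

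Of 11 amino acid transporters, 10 were expressed enough to test. In G2/SCR 6 rose and none fell, in G2/WT 3 rose and 1 fell, and in SCR/WT none rose and 6 fell. SLC38A2, a carrier of neutral amino acids, rose in both G2 comparisons, by 1.06 (SE 0.09, adjusted p = 1.3e-06) and 0.81 (SE 0.10, adjusted p = 3.4e-05). SLC7A11, which imports cystine, rose by 2.62 in G2/SCR (SE 0.28, adjusted p = 8.9e-06) and by 1.56 in G2/WT (SE 0.31, adjusted p = 0.0012), with libraries from 191 to 204 in G2, from 26.5 to 33.8 in SCR and at 42.2 and 102 in WT. SLC43A1, a carrier of large neutral amino acids, rose in both as well, and SLC7A11 and the glycine carrier SLC6A9 each fell by 1.06 in SCR/WT (adjusted p = 0.020 and 0.0015). The SCR/WT count was 3 with the same total.

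Of 12 enzymes of serine, glycine, one-carbon and proline synthesis, none rose in any comparison, while 2 fell in G2/SCR, 8 in G2/WT and 5 in SCR/WT, and the median was −0.02, −0.74 and −0.49. PHGDH, the first enzyme of serine synthesis, fell by 1.03 in G2/WT (SE 0.08, adjusted p = 6e-07) and by 1.15 in SCR/WT (SE 0.08, adjusted p = 1.3e-06). SHMT2, the mitochondrial enzyme that turns serine into glycine, fell by 0.93 in G2/WT and 1.13 in SCR/WT (adjusted p = 1.2e-07 and 1.8e-07). CBS, of cysteine synthesis, and ALDH1L2, of mitochondrial folate use, fell in both G2 comparisons. The G2/SCR count of 2 was 1 without G2 replicate 1, and with the same total the counts were 6 in G2/WT and 4 in SCR/WT.

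Of 14 genes for cytosolic tRNA charging and export, 1 rose in G2/SCR (XPOT, for export), 2 fell in G2/WT and 1 fell in SCR/WT. The last was YARS1, which charges tyrosine tRNA and fell by 0.66 (SE 0.06, adjusted p = 1.4e-05). The calls in this list were near or below the shares of all genes called. The median over this list was −0.14, −0.47 and −0.32, and 11, 12 and 14 genes were lower in G2/SCR, G2/WT and SCR/WT. At an unadjusted p of at most 0.05 with no demand on the fold, 11, 13 and 12 passed, of which 2, 1 and 0 were higher. The SCR/WT median was −0.05 with the same total. The count of calls in G2/WT was 7 with the upper quartile. The SCR/WT count was 2 without WT replicate 2 and 0 with the same total. For the counts with no demand on the fold, the share of all genes is again given only at the adjusted p.

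The 23 other targets of ATF4 include CEBPG and SLC6A9, which are counted in the lists above as well. Of the 23, 6 rose and 7 fell in G2/SCR, 7 rose and 6 fell in G2/WT, and 6 rose and 4 fell in SCR/WT, with SLC6A9 among the rises in G2/SCR and the falls in SCR/WT. With the same total, 10 rose and 4 fell in G2/WT and 9 rose and 2 fell in SCR/WT. The autophagy receptors SQSTM1 and CCPG1 rose in both G2 comparisons, SQSTM1 by 0.77 and 0.85 (adjusted p = 7.2e-08 and 8.5e-08) and CCPG1 by 0.95 and 1.28 (adjusted p = 1.3e-07 and 2.9e-08). EIF4EBP1, which blocks cap-dependent translation, fell by 0.85 and 1.37 (adjusted p = 2.4e-06 and 9.8e-08), and TXNIP, which binds thioredoxin, by 1.64 and 1.37 (adjusted p = 6.1e-10 and 8e-09). FUT1 ran from 58.3 to 73.1 in G2 and from 35.7 to 54.4 in SCR and was at 9.93 and 3.97 in WT. INHBE was at 26.1 and 41.7 in WT and at most 5.47 in the other libraries, and passed the expression filter only through WT. As both were near the floor of about 3 fragments in a line, no fold is given. Both are in the counts of G2/WT and SCR/WT above, FUT1 among the rises and INHBE among the falls.

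SCR, in which SESN2 and DDIT4 were highest, also had the highest mean for 7 of these 23 targets, namely STC2, GDF15, KLHL24, CDKN1A, TNFRSF10B, BBC3 and TXNIP, a share near the 29.4% of all genes.

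The 11 chaperones and folding factors of the endoplasmic reticulum were listed beside the pathway because DDIT3 also responds to unfolded protein there. In G2/SCR 8 rose and none fell, in G2/WT 3 rose and none fell, and in SCR/WT none rose and 4 fell. PDIA4, a disulfide isomerase, rose by 1.72 in G2/SCR (SE 0.05, adjusted p = 7.2e-11) and by 1.23 in G2/WT (SE 0.05, adjusted p = 3e-09), and DNAJC3 and EDEM1 rose in both as well. HSPA5 (BiP), the main chaperone of this compartment, rose in G2/SCR by 0.89 (SE 0.07, adjusted p = 3e-07) and fell in SCR/WT by 0.69 (SE 0.07, adjusted p = 3e-05), and SDF2L1 fell in SCR/WT by 0.75 (SE 0.13, adjusted p = 0.00094). With the same total none of these chaperones was called lower in SCR/WT and 1 was called higher. The G2/WT count was 5 with the same total, without G2 replicate 3 and without WT replicate 2.

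**Figure D4:**
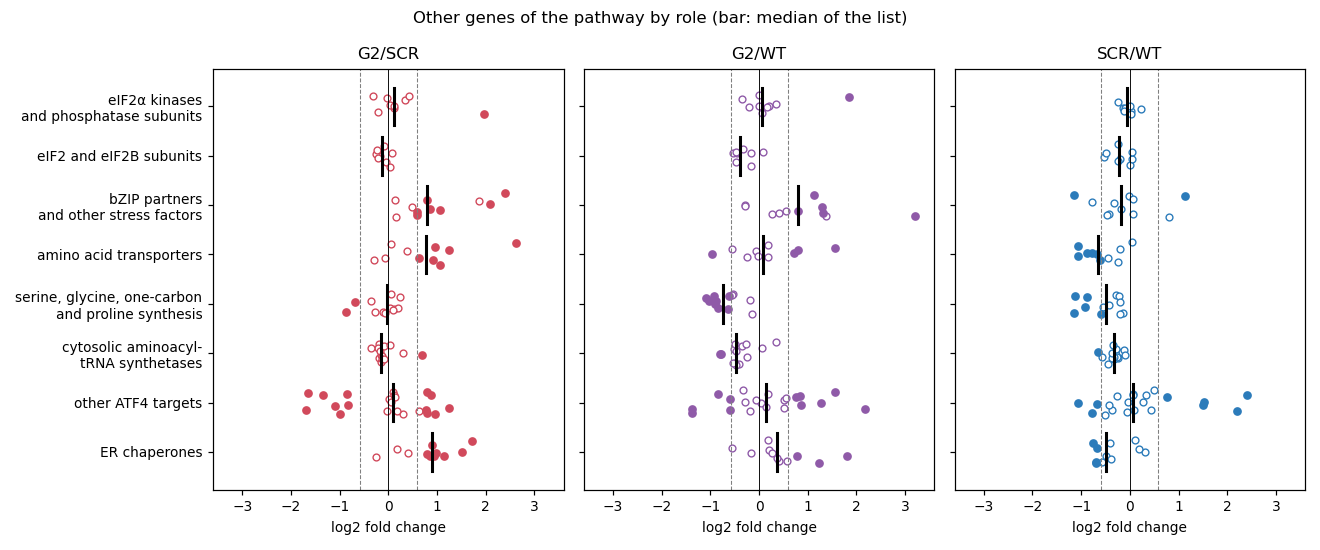
Log2 fold change (x axis) of the other genes of the pathway, grouped by role (y axis), in G2/SCR, G2/WT and SCR/WT, with filled points for called genes, black bars for the median of each list and dashed lines at a fold of 1.5. Points are jittered upward and downward for display, and FUT1 and INHBE are left out where a line was near the floor. The medians of stress factors, transporters and chaperones are at 0.78 to 0.89 in G2/SCR, and that of serine and one-carbon enzymes is at −0.74 in G2/WT. The transporter and chaperone medians are at 0.07 and 0.37 in G2/WT and at −0.64 and −0.49 in SCR/WT, which uses the same SCR libraries as G2/SCR.

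Other measured features also differed between the lines. The summed level of 12 adrenergic neuroblastoma markers ran from 275490 to 279516 in G2, from 382866 to 393473 in SCR and from 356647 to 368944 in WT. STMN2 was the largest part of it, at a mean of 165517 in G2, 170244 in SCR and 116782 in WT. Adrenergic markers were thus expressed in all 3 lines, but 9 of the 12 fell in each G2 comparison. TH, among these 9, was low, from 0 to 5.65 in G2 and from 5.63 to 26.5 in the other libraries. It passed the expression filter only through those other libraries. The sum of 12 mesenchymal-type markers, of which FN1 was near the floor in every library, ran from 269805 to 275278 in G2, from 116107 to 123553 in SCR and from 85261 to 97165 in WT, and 10 of the 11 tested rose in each G2 comparison. VIM was the largest part of this sum, at a mean of 214430 in G2, 85197 in SCR and 59181 in WT. PRRX1, among the 10 that rose, ran from 20.7 to 48.2 in G2 and was at 0 in every SCR and WT library. It passed the expression filter only through G2, so its rise was fixed in advance. Of all genes, 15.1% and 17.7% were called higher in G2/SCR and G2/WT, and 11.8% and 12.2% were called lower. The sum of 10 proliferation genes ran from 96068 to 97911 in G2, from 87599 to 88169 in SCR and from 144654 to 147142 in WT, and 4 of them fell in G2/WT and 7 in SCR/WT, or 2 in each with the same total. Of 6 glial and Schwann cell markers, SOX10 and GFAP were near the floor in every library, and the sum ran from 170 to 599. Of 5 haematopoietic markers, PTPRC, CD3E and ITGAM were near the floor, and the sum ran from 20.7 to 64.2. The part of these changes in the results for the 10 genes was not tested. In such bulk libraries, fewer cells of a state and less mRNA per cell cannot be told apart.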

How the data were processed

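RNA-seq of 8 libraries was analysed from the deposited table. Per the labels and the study's methods, the authors aligned the read pairs to hg38 using STAR, obtained counts for FAST DB genes from featureCounts (Subread 1.5.0) and divided them by DESeq2 size factors. The table the authors deposited holds this signal, a normalized count that is neither scaled to gene length nor on a log scale. No column was left unassigned. Dividing each library by the step between its values gave whole counts for 100.00% of values (tolerance 0.1). The step of WT replicate 2 was too near 1 for this to be checked, so only G2/SCR was also run with count models, where DESeq2 1.42.0 called 4973 genes and edgeR 4.0.16 called 5093. Of the genes with 1 GENCODE 44 entry, 99.94% overlapped it.

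The main test was limma 3.58.1 in R 4.3.3 with a trend, on log2(value + 1), over genes with a mean of at least 10, in 1 fit with a mean per line. Fold changes on this scale are understated for low genes. Genes were called at a fold of at least 1.5 and p of at most 0.05. It was tested on simulated data. Genes were at the floor where no library of a line exceeded 9 recovered counts, about 3 fragments, and the floor covers counting error only. MARS1, listed without its symbol, was matched by its coordinates. The members and lists were chosen with earlier results of these data known. Named genes are the members, PRPF40B and, per list, up to 4 genes with the smallest p called in both G2 comparisons and the 2 largest changes called in SCR/WT. Alternatives were the pseudocount, filter, scaling, thresholds, trend, samples in the fit, replicate and library number blocks, tool and leaving out each library.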

Additional observations from a re-analysis of the deposited data

How the results depend on the processing

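With a fold of at least 2 the members called were 0 in G2/SCR, 2 in G2/WT and 0 in SCR/WT, all genes called were 2951, 3176 and 1491, and PRPF40B, at −0.95, was no longer called. With a mean of at least 100, all genes called were 3088, 3633 and 1723, as fewer genes were tested. The members called in G2/SCR were 3 with the same total, with the upper quartile and with the same total without ribosomal RNA genes, 2 with the library number block, and 1 to 2 when each library was left out. Some differences near 0, none of them called, changed sign. ATF4 in G2/SCR was −0.033 with the same total, with the upper quartile and with the same total without ribosomal RNA genes, and −0.0026 with the library number block. In SCR/WT, DDIT3 was 0.11, PPP1R15A 0.028 and EIF2AK4 0.15 with the same total, and without ribosomal RNA genes DDIT3 was 0.044 and EIF2AK4 0.086. In G2/WT, DDIT4 was 0.032 and EIF2AK4 0.18 with the same total, and EIF2AK4 was 0.11 without ribosomal RNA genes and 0.028 with the library number block. When each library was left out, DDIT3 in SCR/WT ran from −0.37 to 0.033, TRIB3 in G2/SCR from −0.12 to 0.024 and EIF2AK4 in G2/WT from −0.086 to 0.071. The cause was not tested. The deviations of replicates with the same number in the titles had correlations of −0.13, 0.05 and 0.15 between G2 and SCR. The pair at 0.15, replicate 3, also shares the number in its library names. Other pairs with the same library number were at 0.07 (G2 replicate 2, SCR replicate 1), 0.11 (SCR and WT replicate 2) and −0.17 (G2 and WT replicate 1). With so few libraries per line, these values cannot tell whether samples were paired or shared a batch. With the replicate block, EIF2AK4 in G2/WT was 0.022 and 1, 5 and 4 members were called in G2/SCR, G2/WT and SCR/WT. Over all alternatives, 603 of 650 values of single members kept their direction and their side of the threshold, 18 were no longer called, 11 became called and 18 changed sign. With 2 libraries, WT limits the precision most.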
